A study of Homo sapiens with 3 samples.

Results

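Accessible chromatin was examined around 9 genes that encode proneural factors of the basic helix-loop-helix (bHLH) class: NEUROG1, NEUROG2, NEUROG3, NEUROD1, NEUROD2, NEUROD4, NEUROD6, ATOH1 and BHLHE22. An accessible region belonged to one of these genes when at least 1 of its summits, the local maxima of the signal, lay inside the RefSeq gene body or within 50 kb of its outer ends. All 9 genes were found among 20037 protein-coding genes, and 49 of the 65234 accessible regions of the list met this rule, none of them for more than 1 gene. The rule used position alone. The regions closest to its limit were one 44.4 kb from NEUROD2, counted, with a fold enrichment of 4.90, and one 55.7 kb from NEUROG3, not counted, with a fold enrichment of 6.92.

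The cells were neurons made from the KOLF2.1J-hNGN2 line, a derivative of the established human induced pluripotent stem cell line KOLF2.1J, and were collected at day 14 of differentiation. NGN2 is an older symbol of NEUROG2, a factor whose forced expression is widely used to turn pluripotent cells into neurons. The labels name the line but not the promoter that drives hNGN2, the site where it is carried or whether it was still induced at collection. ATAC-seq, in which the Tn5 transposase inserts adapters into open DNA, was done on 3 biological replicates. They are the only group, and their deposited peaks come as 1 joint list, so there is no untreated group, no value per replicate and no test between samples.

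Proneural factors bind DNA as dimers with the broadly expressed E proteins at short words of the form CANNTG, called E-boxes, and drive neural progenitors out of the cell cycle and into neuronal differentiation. The NEUROG genes and ATOH1 act early, in progenitors, whereas NEUROD factors follow in cells that are becoming or have become neurons. Notch signalling through HES factors holds the proneural genes down, and ID proteins sequester the E proteins.

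Most of the proneural genes were accessible at an outer end, and the 2 exceptions were NEUROD2 and NEUROD6, genes of cortical excitatory neurons. BHLHE22, also with roles in cortical neurons, did have an accessible end. A summit lay within 1 kb of an outer gene end in 7 of the 9 genes, against 68.8% of all protein-coding genes (Wilson 95% confidence interval 68.1 to 69.4%) and 51.7% of those up to 10 kb long. The share of the proneural genes is thus near the background. Among the proneural genes, ATOH1 and NEUROD4 had the highest fold enrichments at an own end, 9.63 and 8.89, both below the median of all gene starts. The upstream 250 bases of 5 genes are printed here: these 2, NEUROG2, and the 2 genes without a start region, NEUROD2 and NEUROD6. They are RefSeq sequences of GRCh38.p14, read 5′ to 3′ on the strand of the gene and ending at the base before the start of transcription, with every CANNTG word in capitals.
NEUROD2, chr17:39607921-39608170, minus strand: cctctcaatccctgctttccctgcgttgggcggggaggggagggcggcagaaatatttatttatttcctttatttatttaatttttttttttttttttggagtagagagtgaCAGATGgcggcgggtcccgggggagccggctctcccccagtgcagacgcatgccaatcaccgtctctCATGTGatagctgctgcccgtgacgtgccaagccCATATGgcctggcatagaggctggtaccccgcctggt
NEUROD6, chr7:31340727-31340976, minus strand: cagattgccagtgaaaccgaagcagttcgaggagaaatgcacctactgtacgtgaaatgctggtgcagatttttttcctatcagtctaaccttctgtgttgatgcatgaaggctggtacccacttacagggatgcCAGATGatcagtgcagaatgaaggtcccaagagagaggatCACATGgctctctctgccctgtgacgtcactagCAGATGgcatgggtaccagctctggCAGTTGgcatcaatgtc
NEUROD4, chr12:55019724-55019973, plus strand: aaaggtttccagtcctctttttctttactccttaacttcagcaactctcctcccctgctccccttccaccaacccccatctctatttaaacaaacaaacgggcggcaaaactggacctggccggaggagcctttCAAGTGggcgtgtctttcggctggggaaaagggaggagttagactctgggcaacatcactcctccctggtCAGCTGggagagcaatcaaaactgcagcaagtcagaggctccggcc
ATOH1, chr4:93828503-93828752, plus strand: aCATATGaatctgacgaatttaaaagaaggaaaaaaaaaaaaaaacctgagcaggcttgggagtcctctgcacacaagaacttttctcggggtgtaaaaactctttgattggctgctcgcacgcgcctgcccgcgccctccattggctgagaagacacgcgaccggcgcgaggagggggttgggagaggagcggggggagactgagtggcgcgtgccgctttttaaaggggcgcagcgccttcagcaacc
NEUROG2, chr4:112516181-112516430, minus strand: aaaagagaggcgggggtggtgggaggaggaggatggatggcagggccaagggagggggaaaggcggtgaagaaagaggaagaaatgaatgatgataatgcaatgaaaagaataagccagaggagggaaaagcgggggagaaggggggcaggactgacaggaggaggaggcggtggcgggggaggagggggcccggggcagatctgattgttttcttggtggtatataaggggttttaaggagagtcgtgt

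The word CAGATG, or its reverse complement CATCTG, was present upstream of NEUROD2 and NEUROD6 and of no other proneural gene among the 8 with a promoter sequence. NEUROD2 had 1 copy beginning 138 bases before the start, and NEUROD6 had 2, beginning 115 and 42 bases before it. NEUROD2 also held CATATG 37 bases and CATGTG 71 bases before the start, and NEUROD6 held CACATG at 75 and CAGTTG at 17 bases. Both strands were searched, and each of these words is also counted under the general form. NEUROD4 had CAGCTG at 46 bases, close to its summit, and CAAGTG at 116 bases. ATOH1 had a single word, CATATG at 249 bases, and NEUROG3 a single CAGCTG at 150 bases. No CANNTG word was found in the windows of NEUROG1, NEUROG2 and NEUROD1. The highest summits of NEUROG2, 418 bp before the start, and of NEUROG1, 1229 bp inside the gene, lie outside these windows. The sequence at those 2 summits was not searched.

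Among 15860 promoters of protein-coding genes, 9.85% held CAGATG or CATCTG in the same 250 bases, 13.4% held CAGCTG, 1.61% held CATATG and 57.8% held any CANNTG word. Promoters with CAGATG or CATCTG had a summit within 1 kb of the start in 51.8% of cases, and those without in 72.1%. Base composition moved with accessibility too: a start summit was found for 40.0% of promoters below 55% GC and for 82.3% of the others. The windows of NEUROD6, NEUROD4 and NEUROD2 had 49.6%, 53.6% and 54.0% GC, and those of ATOH1 and NEUROG2 55.2% and 56.0%. Those of NEUROD1, NEUROG1 and NEUROG3 had 70.0%, 70.4% and 72.0%, against a median of 62.4%. One of the 3 proneural promoters below 55% and all 5 of the others thus had a summit, and the part of base composition in this pattern was not tested.

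Across the windows, the 49 regions comprised 113 summits. Their median fold enrichment, the authors' value for the height of a summit over its local background, was 5.14 for the strongest summit of each region, against 5.60 over all regions of the list, and ranged from 2.43 to 10.3. Of the 49 regions, 7 lay at an end of the proneural gene itself and 1 elsewhere in its body. A further 5 lay within 1 kb of an end of another protein-coding gene, 3 at the end of a non-coding gene only, and 33 at no annotated gene end. The regions at the proneural genes' own ends had a median fold enrichment of 5.80, the 5 at other coding genes 7.05 and the 33 away from gene ends 4.66. By the number of tags at the strongest summit, described below, the medians were 559, 315 and 227. The own ends thus ranked first by tags but not by fold enrichment.

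**Figure D1:**
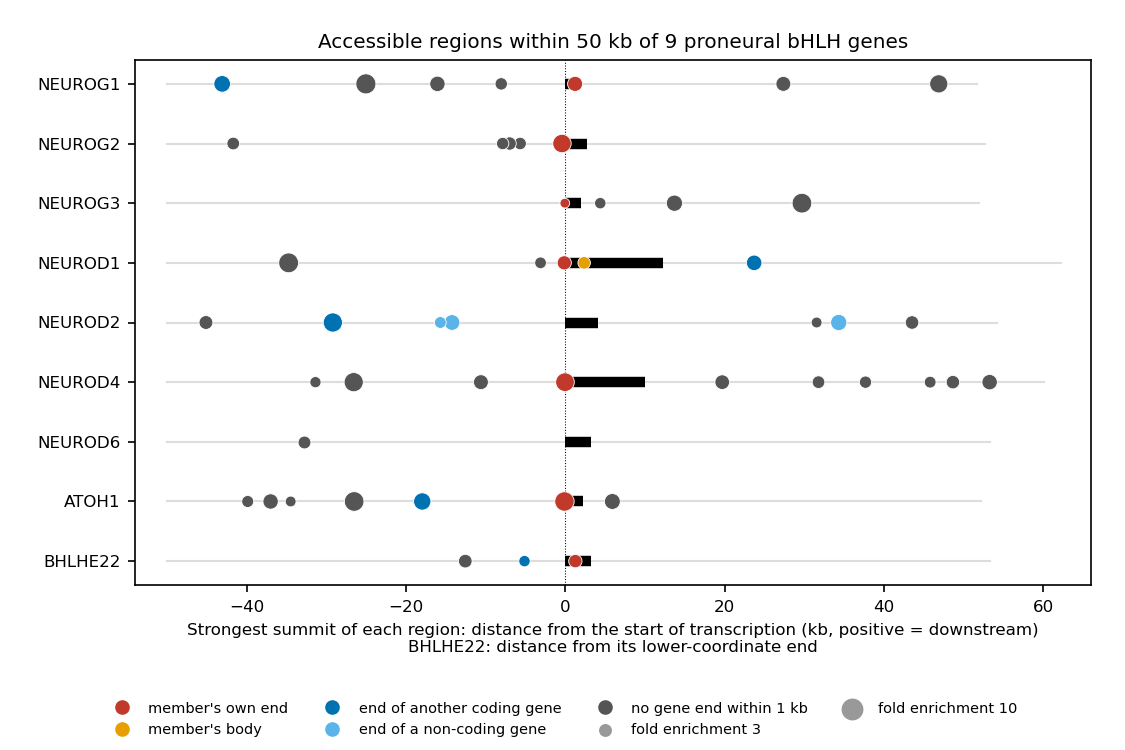
Each row is 1 proneural gene drawn from its start of transcription (black bar, gene body), and each point is an accessible region placed by its strongest summit in kb, with an area proportional to fold enrichment and a colour for its location. The 10 regions of NEUROD4 spread to both sides of the gene, all 5 of NEUROG2 have their strongest summit upstream of the start, and NEUROD6 has 1 region.

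The number of regions per gene ran from 1 to 10. NEUROD4 had 10, NEUROG1, NEUROD2 and ATOH1 had 7 each, NEUROG2 and NEUROD1 had 5, NEUROG3 had 4, BHLHE22 had 3 and NEUROD6 had 1. The median of 5 equalled that of all protein-coding genes, whose quartiles were 3 and 7, and exceeded the 4 of genes up to 10 kb. At least 5 regions were found for 6 of the 9 genes, against a background of 52.2%, and at least 10 for 1 gene, against 10.3%. NEUROD2 and NEUROD6 had no summit in the body or within 10 kb, which held for 13.4% of protein-coding genes.

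**Figure D2:**
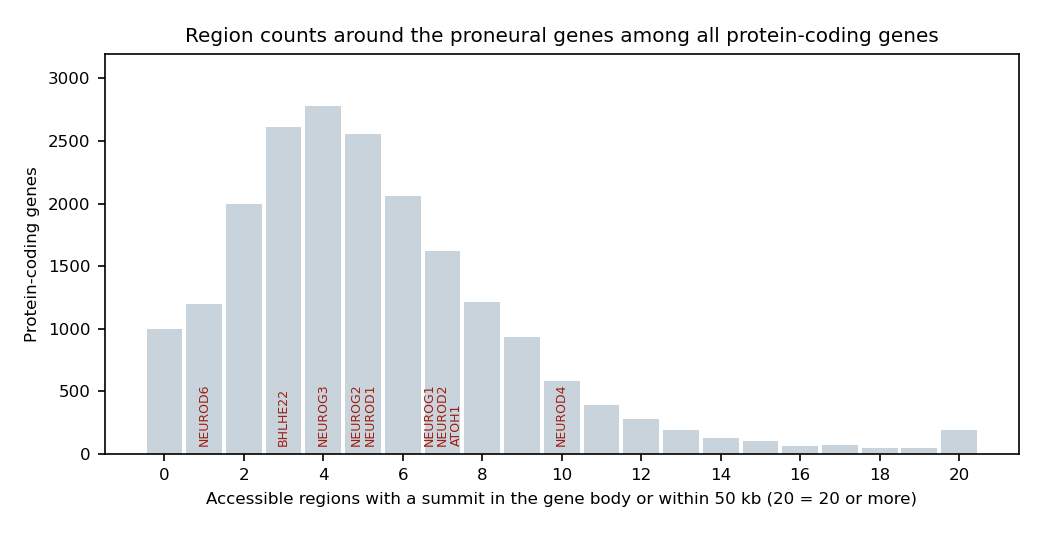
Bars give the number of protein-coding genes (y axis) with each number of accessible regions in the body or within 50 kb (x axis), and the names mark the bins of the 9 proneural genes. They lie between 1 region for NEUROD6 and 10 for NEUROD4, on both sides of the median of 5.

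The tags behind each summit, pooled over the 3 replicates, could be recovered as whole numbers from the fold enrichment and p-value (all 145092 entries within 0.001 units of −log10 p). They ranged from 58 to 3783 over the list. Intervals given with them are exact Poisson 95% intervals, which leave out variation between replicates. They also treat tags as independent, which tags amplified by PCR are not, so they can be too narrow. In these bulk cultures, fewer cells with an open site and less opening per cell cannot be told apart.

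Among the early-acting genes, NEUROG2 had the most tags at its start and ATOH1 the highest fold enrichment. The strongest NEUROG2 summit, 418 bp before the start, had 1175 tags (1109 to 1244) and a fold enrichment of 8.67. The ATOH1 summit, 104 bp before its start, had 996 tags (935 to 1060) and a fold enrichment of 9.63. The tag intervals of the 2 genes do not overlap, and the local backgrounds were 134.6 and 102.6 tags, which puts the 2 genes in opposite order by the 2 measures.

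NEUROG1, a close relative of NEUROG2 that specifies sensory neurons, was intermediate. Its highest summit lay inside the gene, 1229 bp from the start, with 559 tags (514 to 607) and a fold enrichment of 5.80, and the summit 227 bp before the start had 513 tags (470 to 559) and 5.24. NEUROG3, the factor that initiates the endocrine lineage of the pancreas, had the weakest start. Its single summit, 62 bp before the start, had 145 tags (122 to 171), a fold enrichment of 2.43 and a score of 562, close to the lowest score of the list, 540.

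NEUROD1, which acts downstream of the NEUROG factors in neurons and in pancreatic endocrine cells, had 2 summits before its start, at 128 bp with 599 tags (552 to 649) and at 255 bp with 554 tags (509 to 602). Their fold enrichments were 5.14 and 4.74. The tag interval of the summit at 128 bp overlaps those of the NEUROG1 summits at 1229 and 227 bp, and overlap alone does not settle the order. By fold enrichment these NEUROG1 summits, with 5.80 and 5.24, came before NEUROD1. NEUROD4, expressed transiently in differentiating neurons, had 1 summit 39 bp before the start. It collected only 358 tags (322 to 397) but over a background of 39.4 tags, so that its fold enrichment of 8.89 came second to ATOH1. BHLHE22, a factor of the related OLIG family with roles in cortical and spinal neurons, had 460 tags (419 to 504) and a fold enrichment of 4.36 at the strongest summit within 1 kb of an end, 615 bp inside the gene.

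For 11099 protein-coding genes with a summit within 1 kb of the start, out of 15842 whose start is known (70.1%), the median fold enrichment of the strongest one was 10.8, with quartiles of 7.26 and 13.6. All 6 proneural genes of the 8 with a known start that had such a summit were below this median. NEUROG3 was lower than all but 0.694% of genes and ATOH1, the highest, was above 41.3%. By tags the picture was less uniform, with NEUROG2 and ATOH1 above the median of 978 tags and the other 4 below it.

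**Figure D3:**
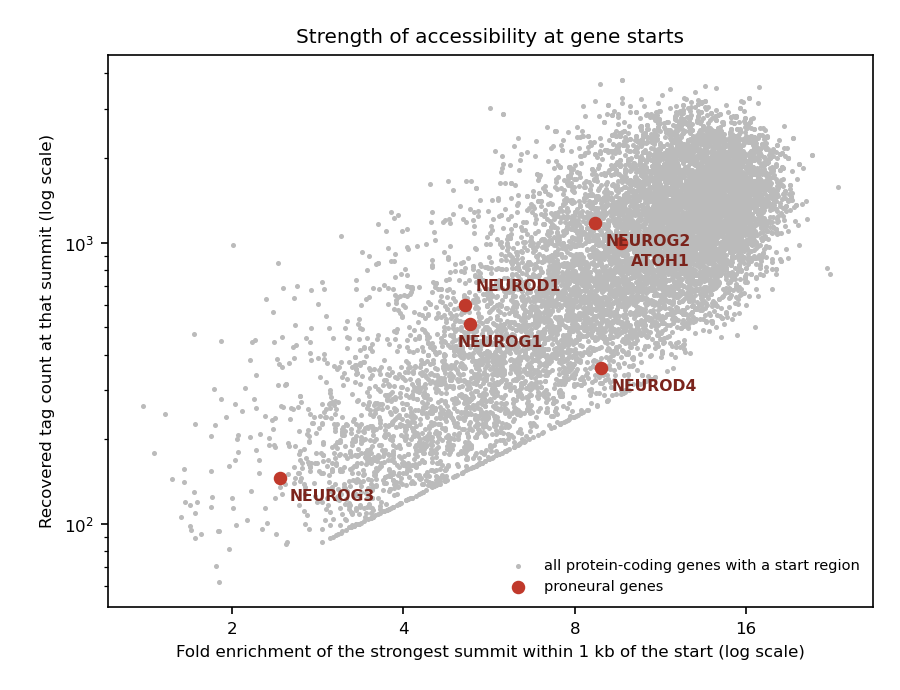
Each grey point is 1 of 11099 protein-coding genes, placed by the fold enrichment (x axis, log scale) and the recovered tag count (y axis, log scale) of its strongest summit within 1 kb of the start, and red points are proneural genes. NEUROG2 (1175 tags) and ATOH1 (996 tags) reach the tag counts of a typical start, NEUROD4 combines a fold enrichment of 8.89 with 358 tags, and NEUROG3 lies at the weak end.

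A region confined to the coding exon of NEUROG2 was looked for, because DNA of an integrated NEUROG2 coding sequence could be aligned there. The gene table gives gene ends but no exons, so the whole gene body of 2665 bp, on chromosome 4 from 112513516 to 112516180 on the minus strand, was used, and 0 regions lay wholly inside it. The only region with a summit in the body spanned 112514794 to 112517091, 2298 bp, of which 911 bp lay before the start and 1387 bp, or 52.0% of the body, inside the gene. Signal from an integrated copy in that stretch would merge with this region. The count of 0 therefore cannot decide whether there was any. The region also covers the start of the antisense non-coding gene NEUROG2-AS1, at 112515379, and has a summit within 1 kb of an end of LOC124900760. Accessibility there could belong to any of these genes.

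This region held 7 summits, and the 6 inside the gene were all weaker than the one upstream. From the start inward they lay at 93, 311, 579, 827, 1086 and 1282 bp, with fold enrichments of 2.13, 2.77, 2.95, 2.65, 1.90 and 1.46. Their tag counts were 289, 379, 408, 369, 264 and 203 in the same order, so the signal was highest in the middle of the covered stretch and lowest at its inner bound. The strongest of them, with 408 tags (369 to 450), stood at 0.34 of the fold enrichment of the upstream summit. Neighbouring summits in the body were 196 to 268 bp apart, and the upstream summit followed after a gap of 511 bp. Over all regions of the list the median gap between neighbouring summits was 270 bp, with quartiles of 229 and 362 bp.

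Summits inside the gene were also found at ATOH1, NEUROG1 and BHLHE22, besides 1 at NEUROD1. ATOH1 had 5, from 141 to 944 bp inside the gene, with 428, 364, 317, 294 and 248 tags and fold enrichments that fell inward from 4.13 to 2.18. NEUROG1 had 5, with 205, 200, 259, 559 and 494 tags from the start inward, so its 2 highest body summits lay toward the far end of the gene. BHLHE22 had 4, with 338, 405, 460 and 475 tags at 111, 391, 615 and 1258 bp from its lower-coordinate end. The 6 values of NEUROG2, 203 to 408 tags, thus fall within the 200 to 559 tags of the body summits of these 3 genes. By fold enrichment they do not all do so: the body summits of the 3 genes ran from 2.05 to 5.80, and the NEUROG2 values of 1.90 and 1.46 lie below that range. Whether reads from hNGN2 add to the NEUROG2 values was not tested.

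**Figure D4:**
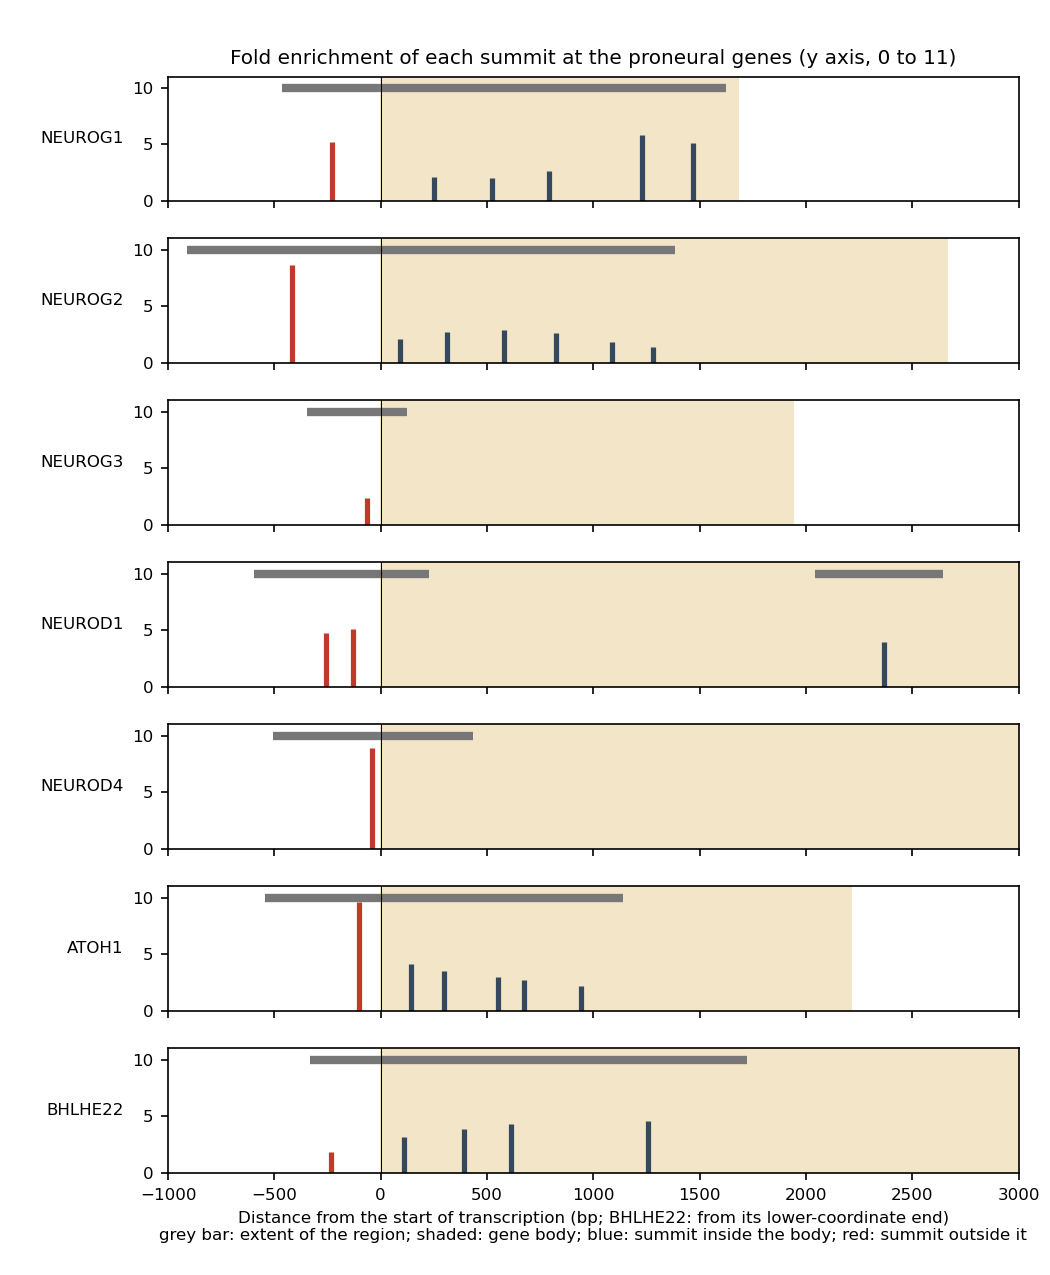
For the 7 proneural genes with an accessible end, bars give the fold enrichment (y axis) of each summit by its distance in bp from the start of transcription (x axis), with the gene body shaded and the extent of each region as a grey bar. At NEUROG2 and ATOH1 the tallest summit is upstream and the body summits are lower, at NEUROG1 and BHLHE22 the tallest is inside the gene, and NEUROG3 and NEUROD4 have 1 upstream summit each.

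Wide regions with many summits recurred among these genes. The regions at NEUROG2, NEUROG1 and BHLHE22 were 2298, 2088 and 2055 bp wide, which made 3 of the 7 own-end regions at least 2 kb wide, against 6.53% of the 10314 regions within 1 kb of a coding start. At least 6 summits were recorded in 3 of the 7, those of NEUROG2, NEUROG1 and ATOH1, against 7.35%. The 7 include BHLHE22, whose start is not known, whereas both backgrounds cover known starts only. The ATOH1 region was 1687 bp wide. The start regions of NEUROG1, NEUROG2 and ATOH1 reached 1622, 1386 and 1140 bp into the gene, and at least 1 kb was reached by 18.8% of 10699 protein-coding genes whose start is covered. Those of NEUROD4, NEUROD1 and NEUROG3 reached 434, 228 and 123 bp. The start region of NEUROG1 covered 96.4% of its body, and that of NEUROD1 1.87%.

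The region with the highest fold enrichment in a window was rarely the one at the gene itself. For 8 of the 9 genes it lay elsewhere, NEUROG2 being the exception, and for 5 of the 9 when tags were compared. Both shares have a high background, since 67.9% and 63.3% of protein-coding genes with a region in the window gave the same result.

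Around NEUROG1, on chromosome 5 from 135534282 to 135535964, the gene's own region spanned 135534342 to 135536429. The strongest other region, 135560515 to 135561575, lay 25.03 kb upstream, with 432 tags and a fold enrichment of 10.3, the highest fold enrichment in any of the 9 windows. It was followed by 135488739 to 135490566, 46.9 kb downstream, with 8.44 and 882 tags, which is more tags than at the NEUROG1 start. Then came 135578386 to 135579616, with 7.05 and 409 tags, at the ends of CXCL14 and SLC25A48.

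NEUROG2 had a group of 3 narrow regions between 5.67 and 7.86 kb before its start, all inside NEUROG2-AS1. They spanned 112521566 to 112522111, 112523025 to 112523612 and 112523685 to 112524233. Fold enrichments of 3.97, 4.56 and 3.89 and tag counts of 335 (300 to 373), 343 (308 to 381) and 293 (260 to 329) differed little, and the tag intervals overlap. The last region of the window, 112557261 to 112558253, lay 41.7 kb upstream within ZGRF1, with 4.10 and 123 tags. Beyond the far end of the gene no region was found within 50 kb.

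For NEUROG3, on chromosome 10 from 69571485 to 69573422, the window was stronger than the start. The start region spanned 69573299 to 69573768, and its summit also lay within 1 kb of an end of LOC101929021. Beyond the far end lay 69568766 to 69569574, with its strongest summit 4.39 kb from the start, a fold enrichment of 3.33 and 174 tags. Farther on the same side were 69559010 to 69560237, with 6.72 and 304 tags, and 69543213 to 69544214, within TSPAN15, with 9.87 and 428 tags (388 to 471). The tags of the last exceed those of the NEUROG3 start, and their intervals do not overlap.

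At NEUROD1, on chromosome 2 from 181668295 to 181680517, 3 of the 5 regions lay within 5 kb of the gene or in it. The start region spanned 181680289 to 181681112, and a region in the body, 181677874 to 181678474, lay 2.37 kb inside with 339 tags and a fold enrichment of 4.01. Another, 181683093 to 181684468, lay 3.11 kb upstream with 4 summits, of which the strongest had 3.49 and 380 tags. The highest fold enrichment, 9.99 with 338 tags, belonged to 181714447 to 181715581, 34.7 kb upstream. The remaining region, 181656457 to 181657549, with 6.16 and 315 tags, lay at an end of CERKL.

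NEUROD2, on chromosome 17 from 39603768 to 39607920, stands in a gene-dense stretch, and 4 of its 7 regions lay at ends of other genes. The strongest, 39636700 to 39637655, reached a fold enrichment of 9.40 and collected 650 tags. It was shared by ends of PPP1R1B and STARD3. Next were 39573339 to 39574396, with 6.72 and 354 tags, and 39621824 to 39622575, with 6.30 and 482 tags, both at ends of non-coding genes. The latter was the closest to NEUROD2, with its summit 14.2 kb before the start. NEUROD6, on chromosome 7 from 31337465 to 31340726, had a single region, 31373024 to 31374259, 32.8 kb upstream, with a fold enrichment of 4.20, 136 tags (114 to 161) and a score of 769.

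NEUROD4, on chromosome 12 from 55019974 to 55030017, had 9 regions besides the one at its start (55019470 to 55020408), and none of the 9 lay at a gene end. The strongest was 54993106 to 54993897, 26.6 kb upstream, with 442 tags and a fold enrichment of 9.39. It was followed by 55072762 to 55073355, 53.2 kb downstream of the start, with 6.06 and 227 tags, and by 55008628 to 55009887, 10.6 kb upstream, with 5.66 and 170 tags. The other 6 had fold enrichments from 3.22 to 5.48.

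ATOH1, the factor of cerebellar granule neurons and inner ear hair cells, lies on chromosome 4 from 93828753 to 93830964. Its own region spanned 93828207 to 93829893. A region downstream, 93834240 to 93835373, had its summit 3.69 kb beyond the far end of the gene, with a fold enrichment of 6.44 and 388 tags (350 to 429). In mice an enhancer downstream of Atoh1, bound by Atoh1 itself, is known to drive its expression, and whether this region is its human counterpart was not tested.

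BHLHE22, on chromosome 8 from 64580365 to 64583627, had a region of its own from 64580032 to 64582086. This region also had a summit within 1 kb of an end of BHLHE22-AS1 and of LOC124900252. A second region, 64575126 to 64575651, 5.12 kb below the lower-coordinate end and also at an end of these 2 genes, collected 170 tags at a fold enrichment of 3.31. Last, 64567696 to 64567922, lay 12.6 kb below that end with 4.73 and 142 tags.

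Genes that work with the proneural factors were described in the same way. An accessible end was found for 6 of 7 E protein and ID genes, against 68.8% of all protein-coding genes, with TCF4, an E protein gene with starts inside its long body, as the exception. For the 6 of them with a start summit the median fold enrichment was 7.89, against 6.95 for the 6 proneural genes, and the median tag count was 1456 against 556. TCF3, another E protein gene, had the highest start value of this list, 13.5 with 1808 tags, and ID2 had the lowest fold enrichment, 5.92. Among 11 other neural bHLH genes, 8 had an accessible end (72.7%, near that background), and NHLH1, NHLH2 and OLIG3 had none. ATOH7, a factor of retinal ganglion cells, had the highest start fold enrichment of this list, 13.4. The median of the 4 with a start summit was 6.10.

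Of 15 genes known to act downstream of proneural factors, 14 had an accessible outer end, again against 68.8%. The exception, CBFA2T3, had a summit at its known start, with a fold enrichment of 4.13. For the 9 with a known start, CBFA2T3 included, the median fold enrichment was 5.72. HES6, an antagonist of HES repressors, had the highest, 9.68, and PRDM8 the lowest, 1.57, while DLL4, a Notch ligand, had 2.88. These lists had medians of 8, 7 and 7 regions in the window. They were compared with the proneural genes as descriptions only.

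The labelled cell type was checked on marker genes. An accessible end was found for 5 of 6 neuron markers, against the 68.8% of all protein-coding genes. RBFOX3 had none at its outer ends but had a summit at its known start, with a fold enrichment of 5.29. Among the 5 neuron markers with a known start, the start fold enrichment ran from 1.71 for TUBB3 to 10.8 for SYN1, with a median of 7.91. Among glutamatergic markers, SLC17A6 had an accessible end and SLC17A7 did not. Neither POU5F1 nor NANOG had one, while LIN28A did. Of the astrocyte markers, AQP4 had one and GFAP did not, and all 3 neural progenitor markers, PAX6, SOX1 and NES, had one.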

How the data were processed

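ATAC-seq of 3 replicates of 1 group was analysed from 1 list of peaks that the authors deposited, an optimal set by irreproducible discovery rate (IDR, which keeps peaks ranked alike across samples or subsamples), per the labels. The build is hg38, per the submitters' processing notes, and aligner, peak caller and filters are not given in the sources used here. The authors deposited for each summit a fold enrichment (linear ratio, 1.29 to 31.9), a −log10 p (5.92 to 2945), a −log10 q (4.28 to 2939) and a score (540 to 1000, scaling not given in the sources used here). The depth of each replicate is not known.

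The 145092 entries were merged by identical bounds into 65234 regions, each with the values of its entry of highest −log10 p. Whole tag counts and local backgrounds were solved from fold enrichment and −log10 p under a Poisson tail with a pseudocount of 1 added to both in the ratio, which was tested on simulated data. Positions count from 1. Genes were placed by RefSeq on GRCh38.p14, with starts and strands from RefSeq promoter windows (250 bases before the start to 50 after it), which held 8 of the 9 genes. BHLHE22 was therefore placed by its outer ends. The table gives no exons. Regions were named if a summit lay in a gene or within 5 kb of it, plus the 3 of highest fold enrichment elsewhere in each window. Some regions that this rule selects are not reported here. Genes, lists and regions were chosen with earlier results of these data known, and no test was made over them. Alternatives were a score of at least 830, windows of 20 and 100 kb, end windows of 500 bp and 2 kb, overlap of 1 bp, all entries, and order by tags. E-box words are given for the 250 bases before the start, in place of the planned 300-base windows. The confidence level was 95% throughout, with Wilson intervals for shares and exact Poisson intervals for tags. Python 3.11.15, numpy 2.4.6, scipy 1.17.1, pandas 2.3.3 and matplotlib 3.10.9 were used.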

Additional observations from a re-analysis of the deposited data

How the results depend on the processing

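The count of 49 regions became 25 with 20 kb beyond the gene ends, 75 with 100 kb and 113 when all summit entries were counted, since each setting admits less or more, and 42 with a score of at least 830. At that score NEUROD6 kept 0 regions, and the start region of NEUROG3 was lost, which leaves 6 of 9 genes with an accessible end. The end windows of 500 bp and 2 kb and the overlap of 1 bp each left 7. The median fold enrichment was 3.50 over all summit entries, against 5.14, since weaker summits of a region then count, and 5.04 to 5.73 in the other settings run. Ordering by tags put NEUROG2, with a fold enrichment of 8.67, before ATOH1 with 9.63. The count of regions confined to NEUROG2 was 0, also at a score of at least 830, and 1 when a summit in the body sufficed. In 300-base promoter windows CAGATG or CATCTG was again found at 2 proneural genes, with a background of 11.7%. No paired analysis was possible because there is 1 group and its replicates were deposited only as pooled peaks, which also means that no replicate could be left out. The list holds called regions only, so a gene without one may still have accessibility below the authors' threshold.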
